A study of Mus musculus with 10 samples.

Results

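Tau is encoded by Mapt, and 9 further genes were followed with it in the hippocampus of tau transgenic female mice. They were Prnp, the prion protein gene whose promoter drives the transgene, the tau kinases and kinase subunits Gsk3b, Cdk5, Cdk5r1, Ttbk1, Ttbk2 and Mark4, the phosphatase subunit Ppp2ca and the ubiquitin ligase Stub1. The genes were chosen by symbol. Each of the 10 symbols matched 1 of the 56884 rows of the count table through its Ensembl identifier, and all 10 were among the 17622 genes that passed the filter on low counts.

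The mice were ovary-intact P301S females, a line that expresses human Tau with the P301S mutation under the mouse prion protein promoter. Subcutaneous implants were given from about 6 months of age for 12 weeks and were renewed at intervals during that time. In 5 mice the implant held 10 mm of DHT (dihydrotestosterone, an androgen that aromatase cannot convert to estrogen), and in 5 mice it was void. The hippocampus was collected at 9 to 9.5 months and gave 1 mRNA library per mouse. Both groups carried the transgene, so no value here compares P301S mice with mice that lack it. The table had no row with an identifier that was not mouse, so the transgene was not measured apart from the mouse genes, and transgene reads that match mouse exons of Mapt or Prnp cannot be told apart from reads of the mouse genes.

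Total counts were 27188854 to 47113661 per void mouse and 33523527 to 45947784 per DHT mouse. All void libraries were numbered ahead of all DHT libraries, and an effect of that order cannot be told apart from one of DHT. Markers of hippocampal neurons that were chosen after the values were seen were present in all 10 libraries, with Prox1, of dentate granule cells, at 118 to 211 CPM (the normalised read count scaled to a common library size). Choroid plexus markers differed between groups, with a summed level of 120 to 1905 CPM with void and 2207 to 3138 CPM with DHT. The summed level of 12 microglia markers was 478 to 580 CPM with void and 707 to 1112 CPM with DHT. In bulk tissue, fewer cells of a type and less RNA per cell cannot be told apart.

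Tau is a microtubule-associated protein of neuronal axons that detaches from microtubules when it is heavily phosphorylated. GSK3β, CDK5, the tau tubulin kinases and the MARK kinases phosphorylate tau at different sites, protein phosphatase 2A removes phosphate from it, and CHIP, the product of Stub1, tags it for degradation. These steps act on protein, whereas the values given here are transcript levels.

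Both the levels and the sequence of the Prnp promoter bear on the transgene. The window printed here was taken from RefSeq and spans 250 bases before to 50 bases after the annotated start of mouse Prnp, at chr2:131909678-131909977 on the plus strand of GRCm38.p6. It is the endogenous mouse locus and not the construct itself. Capitals mark GGGCGG, the GC box, on either strand.
Prnp: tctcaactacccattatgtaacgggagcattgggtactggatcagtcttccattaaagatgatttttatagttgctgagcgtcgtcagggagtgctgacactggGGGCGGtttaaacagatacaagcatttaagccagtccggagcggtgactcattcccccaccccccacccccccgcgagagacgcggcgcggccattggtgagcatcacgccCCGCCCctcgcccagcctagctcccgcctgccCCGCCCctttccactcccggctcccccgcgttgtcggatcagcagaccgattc
The window had 60.0% GC, 22 CpG dinucleotides and 3 GC boxes. It held neither AGGTCA, a half-site of nuclear receptors, nor AGAACA, a half-site of the androgen receptor. Of 32851 windows of that length, 35.7% held GGGCGG, 16.3% held AGGTCA and 19% held AGAACA on either strand. RefSeq windows were found for 6 of the 10 genes, 7 windows in all, and none of the 7 held AGGTCA. A match of letters describes the window only.

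Per kilobase of exon, Prnp was the most abundant of the 10 transcripts and Ttbk2 the least abundant. Levels between genes were compared as RPKM, the CPM divided by exon length in kilobases, over all 10 mice. Prnp had a mean of 528 RPKM with a range of 492 to 581. Mapt followed with a mean of 85.6 and a range of 76.5 to 92.8 RPKM, and neither range met another. Cdk5r1, which encodes the p35 activator of CDK5, had a mean of 62.5 RPKM. It overlapped the next gene, Ppp2ca, which had a mean of 53.6 RPKM and encodes the catalytic subunit of protein phosphatase 2A. Gsk3b, the kinase first named for glycogen synthase, had a mean of 36.3 RPKM and lay below both. Cdk5 had a mean of 30.9 RPKM, Stub1 of 23.7 and Mark4 of 20.01, and from Gsk3b down to Mark4 each range overlapped that of the next gene. Ttbk1 and Ttbk2, which encode the tau tubulin kinases, had means of 13.5 and 11.9 RPKM with overlapping ranges. The activator transcript Cdk5r1 was above the transcript of its kinase Cdk5 in every mouse.

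**Figure D1:**
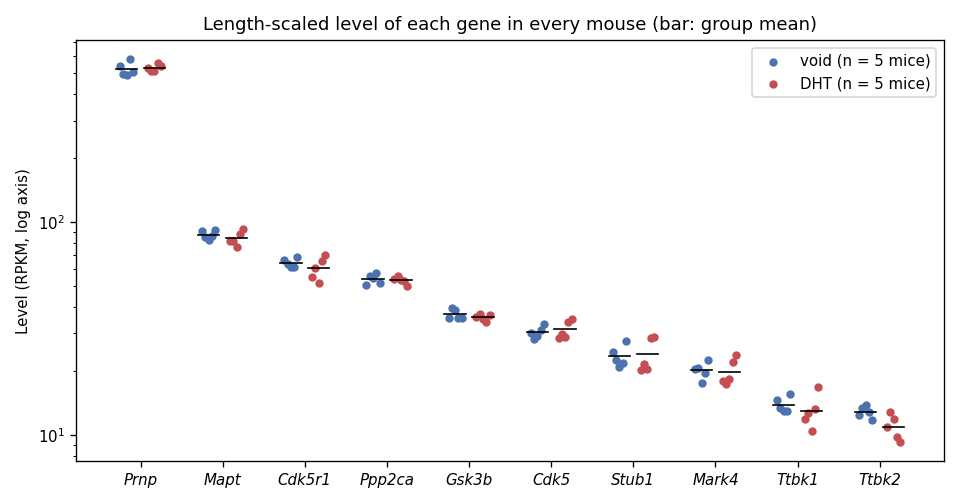
Level of each of the 10 genes in RPKM (log axis) in each of the 5 void and 5 DHT mice. Prnp lies above all others at 492 to 581 RPKM, Mapt follows at 76.5 to 92.8, and the void and DHT points overlap for every gene.

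The central question was whether DHT moved the transcripts of tau, its kinases and the enzymes that act against them. None of the 10 was called higher or lower at an adjusted p under 0.05 by the quasi-likelihood test of edgeR (p adjusted by Benjamini-Hochberg over all genes), against 5.48% of all genes tested. With a log2 fold change beyond 1 required as well, the share of all genes was 2.19% and the count of the 10 again 0. At an unadjusted p under 0.05 there was 1, Ttbk2, which was lower with DHT, and 17.4% of all genes tested reached that level. DESeq2 also called 0 of the 10, with 6.91% of its genes called. Void and DHT mice overlapped in the CPM of each of the 10 genes, whereas 6.27% of all genes tested had groups that did not overlap. The log2 fold changes of the 10 ran from -0.23 to 0.04 with a median of -0.04, and 3 were positive and 7 negative. The median over all genes tested was 0.01, and over the 4781 genes with a mean of at least 50 CPM it was -0.03. All of the 10 were at that level. For 7 of the 10, the 95% interval of the change in this fit lay within 20% in either direction, the exceptions being Ttbk1, Ttbk2 and Stub1. Counts ranged from 1707 to 57295 per gene and mouse, which gives a counting error of 0.418% to 2.42%, so the width of the intervals came from the spread between mice more than from depth.

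**Figure D2:**
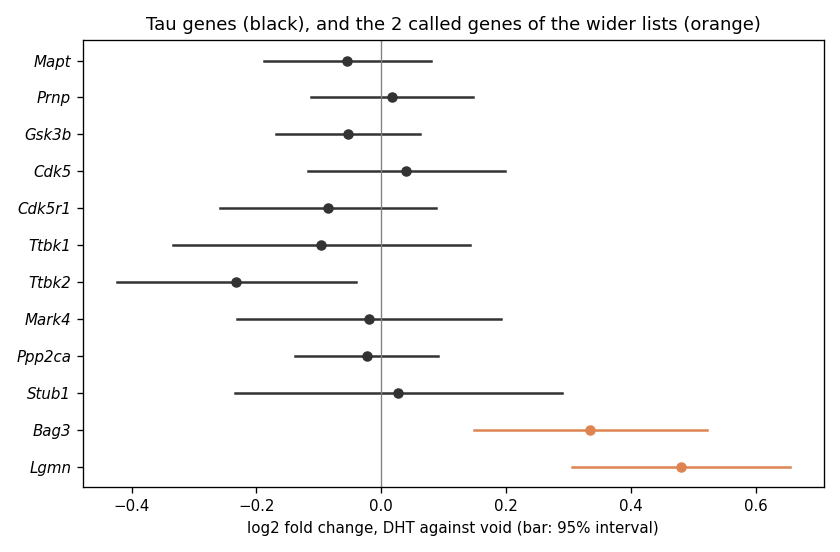
Log2 fold change of each gene with DHT against void, with its 95% interval, from edgeR's fit over all genes. Of the 10 genes (black), Ttbk2 is the one whose interval, from -0.42 to -0.04, does not reach 0, and its adjusted p was 0.178. Orange marks the 2 called genes of the wider lists described further on, Bag3 (0.15 to 0.52) and Lgmn (0.31 to 0.65).

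Mapt (ENSMUSG00000018411) was at 686, 640, 622, 648 and 689 CPM in the void mice named 10, 11, 4, 5 and 9. In the DHT mice named 1, 2, 3, 5 and 6 it was at 612, 614, 576, 661 and 699 CPM. The highest and the lowest mouse were both DHT mice, and 3 of the 5 DHT mice lay below every void mouse. The means were 657 ± 29.5 CPM with void and 632 ± 48.0 CPM with DHT (SD, n = 5). The log2 fold change was -0.05 (standard error 0.06, 95% interval -0.19 to 0.08, edgeR adjusted p = 0.738). Under the scaling of this fit, that interval runs from -12.3% to 5.72%. The difference did not exceed the variation among mice (exact permutation test, two-sided, p = 0.357). A scaling on neuron markers, described further on, gave Mapt a log2 interval of -0.07 to 0.17.

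Prnp (ENSMUSG00000079037) was at 1274, 1167, 1153, 1362 and 1190 CPM in the void mice in the same order. In the DHT mice it was at 1241, 1197, 1200, 1309 and 1272 CPM. All 5 DHT mice were above the void median, yet all lay within the void range. The means were 1229 ± 87.9 CPM with void and 1244 ± 47.9 CPM with DHT (SD, n = 5). The log2 fold change was 0.02 (standard error 0.06, 95% interval -0.11 to 0.15, edgeR adjusted p = 0.933). Under the scaling of this fit, that interval runs from -7.52% to 10.7%. A scaling on neuron markers, described further on, gave Prnp a log2 interval of -0.02 to 0.27. The level of the transgene itself was not measured.

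The CDK5 and GSK3β transcripts did not pass the test either. Gsk3b (ENSMUSG00000022812), a kinase restrained by insulin and Wnt signaling, was at 364 ± 19.96 CPM with void and 351 ± 12.8 CPM with DHT (SD, n = 5; log2 fold change -0.05, 95% interval -0.17 to 0.06). Cdk5 (ENSMUSG00000028969), a kinase active in neurons once an activator binds it, was at 66.0 ± 4.11 CPM with void and 67.9 ± 6.46 CPM with DHT (SD, n = 5; log2 fold change 0.04, 95% interval -0.12 to 0.20). Its activator Cdk5r1 (ENSMUSG00000048895) ranged from 257 to 285 CPM with void and from 216 to 292 CPM with DHT. The range with DHT enclosed the range with void. Its log2 fold change was -0.09 (95% interval -0.26 to 0.09).

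Ttbk2 (ENSMUSG00000090100), a kinase also known for starting the assembly of cilia and as the gene of a spinocerebellar ataxia, had the largest difference of the 10. It was at 142, 153, 158, 147 and 135 CPM in the void mice named 10, 11, 4, 5 and 9. In the DHT mice named 1, 2, 3, 5 and 6 it was at 125, 147, 136, 111 and 106 CPM. In 3 DHT mice it was below every void mouse, and in the other 2 it lay within the void range. The log2 fold change was -0.23 (standard error 0.09, 95% interval -0.42 to -0.04, edgeR unadjusted p = 0.0215, adjusted p = 0.178). The two-sided exact permutation test used for Mapt gave p = 0.0556. By the p of edgeR, Ttbk2 ranked 2129 of 17622 genes, and 4.22% of all genes were lower at an unadjusted p under 0.05. In the annotation, 29.9% of its exon bases are shared with Cdan1 on the same strand, so how reads were assigned there can move its count.

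Ttbk1 (ENSMUSG00000015599), the tau tubulin kinase known for its neuronal expression, was at 196 ± 16.5 CPM with void and 184 ± 32.9 CPM with DHT (SD, n = 5; log2 fold change -0.10, 95% interval -0.33 to 0.14). The DHT mice spread from 148 to 236 CPM and enclosed the void range of 182 to 220 CPM. The promoter windows of the paralogs are shown as a description of sequence, and a link to their transcript levels was not tested. Both are from RefSeq and GRCm38.p6 on the minus strand, Ttbk1 at chr17:46487626-46487925 and the upstream of a pair of Ttbk2 windows at chr2:120850535-120850834, with GGGCGG and AGAACA on either strand in capitals.
Ttbk1: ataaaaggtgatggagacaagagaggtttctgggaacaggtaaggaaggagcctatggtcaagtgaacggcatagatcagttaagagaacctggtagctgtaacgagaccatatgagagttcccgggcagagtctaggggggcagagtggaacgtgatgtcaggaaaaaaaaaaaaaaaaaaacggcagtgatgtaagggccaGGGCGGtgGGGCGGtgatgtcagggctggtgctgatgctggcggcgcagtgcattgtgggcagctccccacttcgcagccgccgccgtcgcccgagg
Ttbk2: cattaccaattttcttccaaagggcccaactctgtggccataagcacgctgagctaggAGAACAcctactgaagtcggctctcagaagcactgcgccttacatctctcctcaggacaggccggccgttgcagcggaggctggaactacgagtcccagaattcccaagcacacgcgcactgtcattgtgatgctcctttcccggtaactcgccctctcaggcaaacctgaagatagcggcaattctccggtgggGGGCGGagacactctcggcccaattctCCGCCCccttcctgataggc
The Ttbk1 window had 55.0% GC and held 2 GC boxes. The Ttbk2 window printed had 57.3% GC and held 2 GC boxes and 1 AGAACA. The other Ttbk2 window, at chr2:120850369-120850668, had 66.3% GC and held 4 GC boxes and 0 AGAACA.

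Mark4 (ENSMUSG00000030397), a kinase that phosphorylates tau in its microtubule-binding repeats, was at 94.1 ± 8.44 CPM with void and 92.8 ± 13.3 CPM with DHT (SD, n = 5; log2 fold change -0.02, 95% interval -0.23 to 0.19). Ppp2ca (ENSMUSG00000020349) varied least between mice of a group, with an SD of 0.0660 on the log2 scale. It was at 405 ± 20.6 CPM with void and 398 ± 15.6 CPM with DHT (SD, n = 5; log2 fold change -0.02, 95% interval -0.14 to 0.09). Stub1 (ENSMUSG00000039615) varied most, with an SD of 0.216. It was at 60.1 ± 7.08 CPM with void and 61.2 ± 11.2 CPM with DHT (SD, n = 5; log2 fold change 0.03, 95% interval -0.23 to 0.29). Exons on the opposite strand cover 39.9% of Ppp2ca (9430098F02Rik) and 42.3% of Stub1 (Jmjd8), and reads there are assigned with certainty only if strand was used in counting.

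Differences between genes within a mouse do not depend on the scaling of the library, and 4 pairs were compared by role on the log2 CPM scale. The activator Cdk5r1 minus its kinase Cdk5 was 2.02 ± 0.073 with void and 1.89 ± 0.069 with DHT (SD, n = 5). The values ran from 1.92 to 2.11 with void and from 1.78 to 1.96 with DHT, so the groups overlapped. The difference of -0.13 had p = 0.0238 in a two-sided exact permutation test and an adjusted p of 0.0952 over the 4 pairs, where the smallest possible p was 0.00794. Tau minus the gene whose promoter drives the transgene, Mapt minus Prnp, differed by -0.08 between groups (exact permutation p = 0.230, adjusted p = 0.460). The phosphatase minus kinase pair, Ppp2ca minus Gsk3b, differed by 0.03 (exact permutation p = 0.571, adjusted p = 0.571). Ttbk1 minus Ttbk2 was 0.417 ± 0.203 with void and 0.548 ± 0.411 with DHT (SD, n = 5; exact permutation p = 0.548, adjusted p = 0.571). Its highest value, 1.16, was in DHT mouse 6, and without that mouse the difference between groups was -0.02 in place of 0.13.

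**Figure D3:**
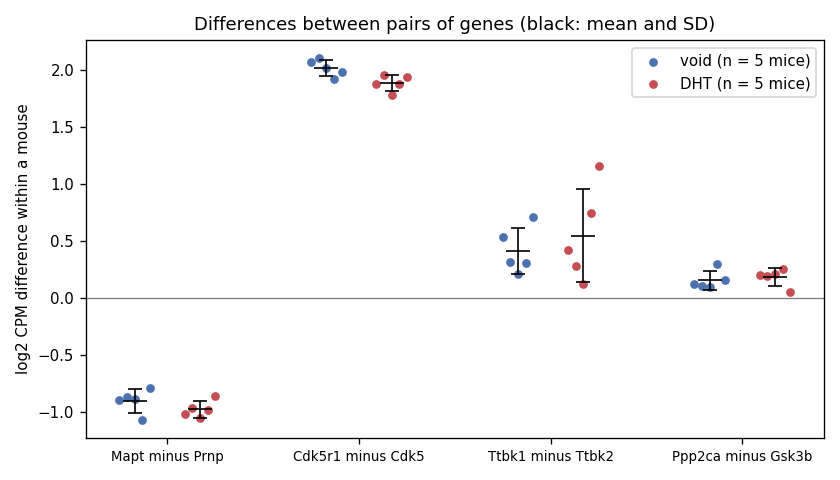
Log2 CPM difference within each mouse for 4 pairs of genes, by group, with group means. Cdk5r1 minus Cdk5 runs from 1.92 to 2.11 with void and from 1.78 to 1.96 with DHT, and the groups overlap in all 4 pairs.

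Within each group, several of the transcripts varied together. Mapt, Cdk5, Cdk5r1, Ttbk1, Mark4 and Stub1 rose and fell together from mouse to mouse, a grouping made after the values were seen. After each group mean was subtracted, the 15 pairs among these 6 genes had Pearson correlations of 0.80 to 0.95 and Spearman correlations of 0.71 to 0.96 over the 10 mice. Ttbk2 ran the other way, with Pearson correlations of -0.90 to -0.71 to the 6 genes, and Ppp2ca did so less closely, at -0.68 to -0.52. For Prnp the groups differed in their values, with Pearson correlations to the 6 genes of -0.17 to 0.33 over the 5 void mice and 0.59 to 0.84 over the 5 DHT mice, a difference that was not tested. These correlations share the same 10 libraries and describe them only. A relation to GC content over many genes is given further on, from a score that was built on part of those same genes.

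**Figure D4:**
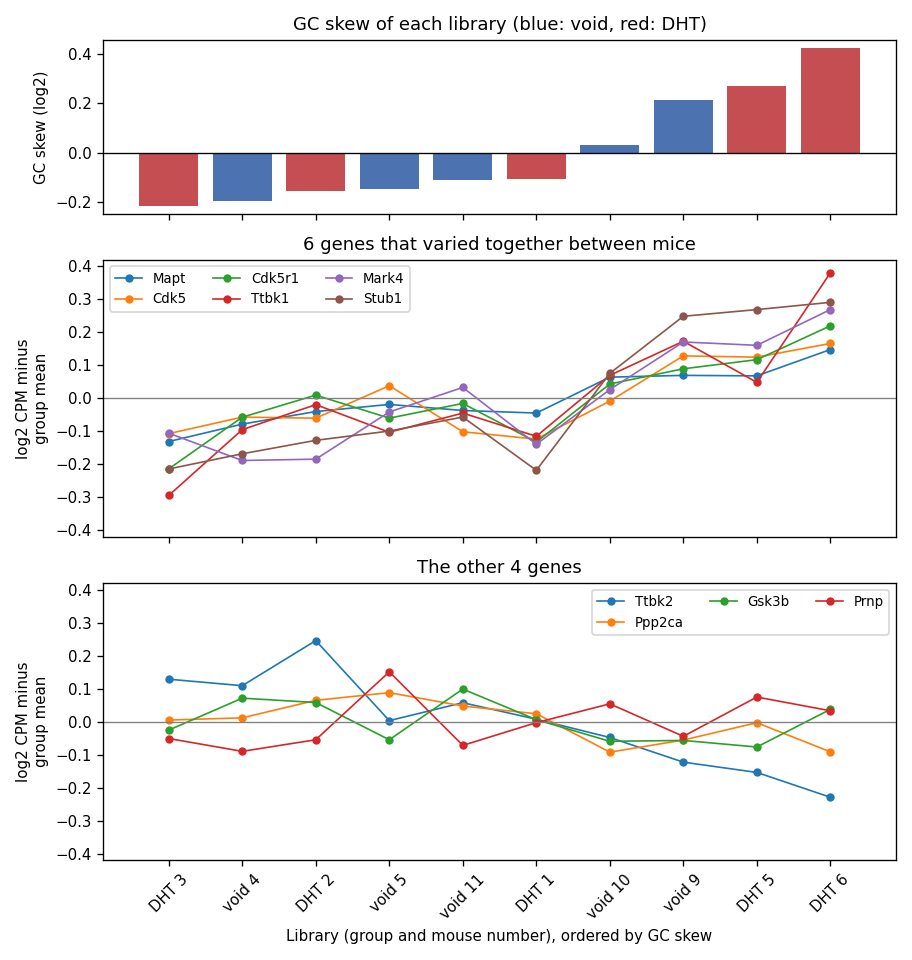
Log2 CPM of the genes in each mouse after subtraction of the group mean, with mice ordered by their GC skew from -0.215 (DHT mouse 3) to 0.423 (DHT mouse 6). The 6 genes that varied together tend to be lower in mice of low skew and higher in mice of high skew, and Ttbk2 tends the other way.

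The GC content of the transcripts separated these genes. It was 52.5% for Mapt, 53.4% for Cdk5, 54.2% for Cdk5r1, 56.5% for Ttbk1, 60.6% for Mark4 and 60.8% for Stub1. It was lower for Prnp at 49.7%, Gsk3b at 46.1%, Ppp2ca at 44.6% and Ttbk2 at 42.6%. Each library was given a GC skew, the mean log2 CPM of the genes in the highest GC tertile (53.0% or more) minus that of the lowest tertile (46.7% or less), each gene taken relative to its own mean. The skew was defined after the values were seen and comes from the same libraries. It was highest in DHT mouse 6, DHT mouse 5 and void mouse 9, at 0.423, 0.269 and 0.211, and lowest in DHT mouse 3 and void mouse 4, at -0.215 and -0.195. The group means of the skew were -0.0424 ± 0.165 with void and 0.0424 ± 0.285 with DHT (SD, n = 5), a smaller difference than the spread in either group.

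Correlations of the 10 genes with the skew are given as a description and with no p, because the skew was defined after these genes had been seen to vary together and most of the 10 lie in the GC tertiles that build it. They were computed as deviations from the group mean over 10 mice. Stub1 had r = 0.98 (rho = 0.90), and r = 0.97 without DHT mouse 6 and void mouse 9, whose deviations were farthest from the median. Mapt, which lies in neither of these tertiles, had r = 0.95 (rho = 0.95), and r = 0.92 without those mice. Ttbk2 had r = -0.92 (rho = -0.94), and r = -0.86 without them. Mark4, Ttbk1, Cdk5r1 and Cdk5 had r between 0.91 and 0.95. For Ppp2ca, r was -0.72 (rho = -0.60) and moved to -0.47 without the same mice. Gsk3b had r = -0.32. Prnp had r = 0.33 over all mice, with -0.07 over the void mice and 0.85 over the DHT mice. Over 10161 genes of at least 10 CPM, GC percent correlated at r = 0.83 with each gene's own r to the skew. Those genes include the ones that build the skew, so a positive r is partly built in. It therefore cannot decide how far the pattern extends beyond the 10 genes.

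With the skew as a covariate in edgeR, added after the data were seen, Ttbk2 was called lower. Its log2 fold change was then -0.19 (standard error 0.04, 95% interval -0.28 to -0.09, edgeR adjusted p = 0.0236), while 1.4% of all genes were called lower and 8.94% in either direction. It was the one call of any of the 10 genes under 19 alternatives, over which the adjusted p of Ttbk2 ran from 0.0236 to 0.9999. With the mean log2 CPM of the microglia markers as the covariate in its place, its log2 fold change was 0.03, and with each mouse left out in turn it stayed between -0.30 and -0.18 with no call. Cdk5r1 and Ttbk1 had log2 fold changes of -0.14 and -0.17 with the skew covariate and did not pass (edgeR adjusted p = 0.0696 and 0.0689). Mapt was at -0.09 (95% interval -0.16 to -0.01) and did not pass either (edgeR adjusted p = 0.141). The intervals of Cdk5r1 (-0.23 to -0.04) and Ttbk1 (-0.29 to -0.05) also lay below 0. Those of the genes other than these and Ttbk2 reached 0.

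Among 10189 genes of at least 10 CPM, the transcripts most like Mapt from mouse to mouse, by Pearson correlation after subtraction of group means over 10 mice, were Cactin (r = 0.99), Larp6 (0.99), Dexi (0.99), Mtss1l (0.98) and Neurl1a (0.98). Their GC content was 55.4% to 63.3%. Those most like Prnp were Rab33a (0.92), Snrpn (0.92), Lbh (0.90), Elmo1 (0.90) and Cpe (0.90), with GC content of 45.5% to 53.5%.

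The wider tau machinery was described with 6 further lists of 151 genes, of which 150 were tested. At an adjusted p under 0.05, 2 of the 150 were called higher and 0 lower in edgeR's test, against 5.22% higher and 0.261% lower of all genes. An unadjusted p under 0.05 was found for 11 of the 150, against 17.4% of all genes tested, the share to set beside the count of each list. DESeq2 also called 2 higher and called 1 lower. The median log2 fold change of the 150 was -0.02, with 58 positive and 92 negative, beside -0.03 for all genes with a mean of at least 50 CPM. All 45 other tau kinases and kinase regulators were tested and 0 were called, with 3 at an unadjusted p under 0.05 and a median of -0.02. The largest difference among them was that of Syk, a kinase of immune receptor signaling, at 4.84 ± 0.711 CPM with void and 6.53 ± 1.302 CPM with DHT (SD, n = 5; log2 fold change 0.44, edgeR adjusted p = 0.150). Without DHT mouse 2 its adjusted p was 0.0417.

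Of 29 phosphatase genes 0 were called, with 1 at an unadjusted p under 0.05 and a median of -0.03. Ppp2r1b, a scaffold subunit of protein phosphatase 2A, had the largest difference (log2 fold change 0.20, edgeR adjusted p = 0.175). Of 15 other tau modifying and splicing genes 0 were called, with 1 at an unadjusted p under 0.05. Sirt2, a deacetylase abundant in oligodendrocytes, led them (log2 fold change 0.19, edgeR adjusted p = 0.374). Of 12 tested genes of the prion family and prion protein partners 0 were called, and 0 had an unadjusted p under 0.05. The glutamate receptor Grm5, a partner of the prion protein, had the largest difference there (log2 fold change -0.16, edgeR adjusted p = 0.330).

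Both calls fell among the 33 genes of tau chaperones and turnover, whose median was -0.02. Lgmn, which encodes asparagine endopeptidase, a lysosomal protease that can cleave tau and is abundant in microglia, was at 110, 98.1, 98.2, 105 and 111 CPM in the void mice named 10, 11, 4, 5 and 9. In the DHT mice named 1, 2, 3, 5 and 6 it was at 164, 120, 139, 153 and 152 CPM, each above every void mouse. Its log2 fold change was 0.48 (standard error 0.08, edgeR adjusted p = 0.00902), and it was called with each mouse left out in turn. With the microglia markers as a covariate it was 0.04, and with the choroid plexus markers 0.40, and neither was called. Both scores (mean log2 CPM) separated the groups. They were 4.52 to 4.95 with void and 5.18 to 5.92 with DHT for microglia, and 1.66 to 5.65 and 6.03 to 6.81 for choroid plexus. Neither covariate can thus be told apart from DHT, and with either one 0 of all genes tested were called.

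Bag3, a cochaperone of selective autophagy, was at 11.5 ± 1.08 CPM with void and 14.4 ± 1.05 CPM with DHT (SD, n = 5), with no overlap of the groups. Its log2 fold change was 0.33 (standard error 0.09, edgeR adjusted p = 0.0416). The call was held in 2 of the 10 fits that left out a mouse, those without DHT mouse 2 and without void mouse 10, and the adjusted p rose to at most 0.174 in the others. The nearest values of the groups were 13.2 CPM with void and 13.4 CPM with DHT. With the microglia markers as a covariate its log2 fold change was 0.01, and with the choroid plexus markers 0.25, and neither was called. The same limit holds, since both scores separated the groups and 0 of all genes tested were called with either one.

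The 16 other microtubule-associated proteins had the lowest median of the lists, -0.10, with 11 negative and 0 called. An unadjusted p under 0.05 was found for 4 of the 16, against 17.4% of all genes tested. Doublecortin (Dcx), a marker of newborn neurons, was at 26.97 ± 5.45 CPM with void and 19.9 ± 2.93 CPM with DHT (SD, n = 5; log2 fold change -0.44, edgeR adjusted p = 0.106). DESeq2 called it lower (adjusted p = 0.0302). Beside this list, 12 neuron markers had a median of -0.09 with 11 negative and 0 called. The summed level of those markers was 7739 to 8671 CPM with void and 6859 to 8295 CPM with DHT. Its part in the values of Mapt and the other neuronal genes was not tested beyond a scaling on these markers, under which 0 of the 10 genes were called.

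**Figure D5:**
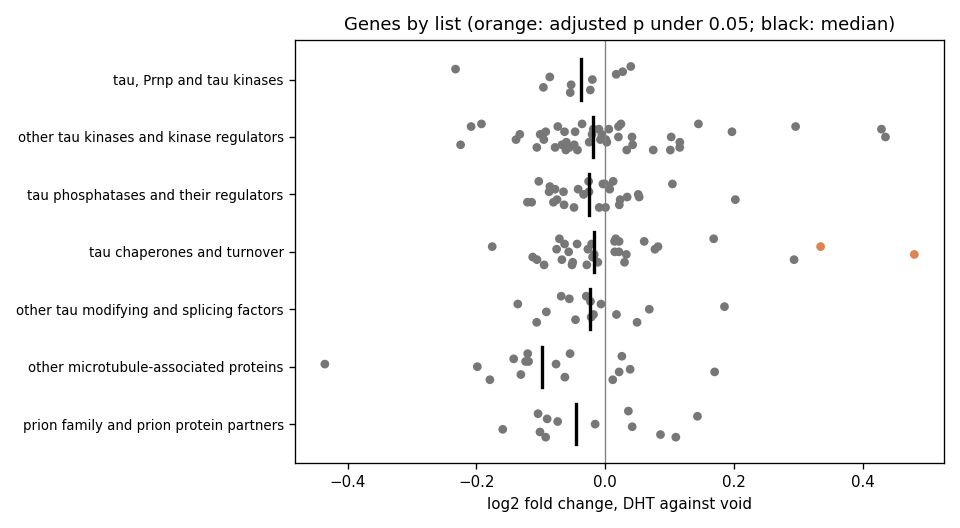
Log2 fold change with DHT of every tested gene in the lists of the tau machinery, with list medians. The tau lists have medians from -0.10 to -0.02. Cell type markers are not drawn. For comparison, the 12 microglia markers had a median of 0.80 and the 12 choroid plexus markers a median of 2.11.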

How the data were processed

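Bulk RNA-seq of hippocampus was analysed for 5 void and 5 DHT female P301S mice, grouped by the sample labels. The authors deposited raw counts per gene, made with a KAPA mRNA kit, paired-end sequencing, HTStream 1.3 and STAR 2.7.10b. The study's methods name the mm10 build and the submitters' processing notes mm39 and GRCm39. The counter, annotation release, strand setting and treatment of reads that match several genes are not given in the sources used here. Symbols came from GENCODE M21 (51948 of 56884 rows, of which 51911 had a later version), and exon lengths and GC content from that annotation as well, so RPKM values are approximate and no coordinates are taken from the count table.

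Counts were fitted in R 4.3.3 with edgeR 4.0.16 (TMM, expression filter by group, quasi-likelihood test, Benjamini-Hochberg over 17622 genes, called at an adjusted p under 0.05). The test was checked on simulated counts. The standard error of a fold change was taken from its F statistic (size over root F). CPM values are TMM-normalised, and log2 CPM used a prior count of 2. Single values were compared with two-sided exact permutation tests. GC content, known for 17282 genes, is that of the longest coding transcript. Samples with near-identical counts were looked for and none were found. Depth was 27188854 to 47113661 counts.

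The text names the 10 genes, every called gene of the lists, the gene of each list with the largest change, and the 5 genes most like Mapt and Prnp. Any further gene was picked with its values in view. The genes and lists were chosen with earlier results of these data known. Alternatives were DESeq2 1.42.0, other scalings and filters, choroid plexus and microglia covariates, and leaving out each mouse. The GC skew covariate was added after the data were seen.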

Additional observations from a re-analysis of the deposited data

How the results depend on the processing

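No paired analysis was made, because the sample labels give no pairing of void with DHT mice. The count of the 10 genes called stayed at 0 under every alternative except the GC skew covariate, which called 1 lower (Ttbk2). Over all genes, 920 were higher and 46 lower. Higher calls moved beyond 1.5 times to 1476 with scaling on neuron markers and to 0 with the choroid plexus or the microglia covariate. Lower calls moved to 224 with DESeq2, 8 with neuron scaling, 246 with the GC skew covariate and 0 with either marker covariate. Leaving out 1 mouse gave 351 (without void 11) to 1072 (without void 9) higher and 5 (without void 11) to 77 (without DHT 2) lower calls. Of the tau lists, 2 genes were higher, against 1 with DESeq2 size factors or no filter (Bag3 lost), 0 with either marker covariate, 3 with the GC skew covariate (Mapre1 added) and 1 to 3 without 1 mouse. None was lower, against 1 with DESeq2 (Dcx) and 1 with the GC skew covariate (Map6). The cause was not tested. Several log2 fold changes turned sign, among them those of Ttbk2, Syk and Dcx with the microglia covariate, a score that did not overlap between the groups. Prnp was -0.00994 with DESeq2, -0.00995 with its size factors and -0.0938 with the microglia covariate. Stub1 was -0.000414, -0.000514 and -0.0746 in the same settings, -0.0758 with the choroid plexus and -0.0593 with the GC skew covariate. Neuron scaling, which moved the median of all genes to 0.119, gave Mapt 0.0512, Gsk3b 0.0576, Cdk5r1 0.0137, Ttbk1 0.000981, Mark4 0.0817 and Ppp2ca 0.0908. The choroid plexus covariate gave Cdk5 -0.0163 and Ppp2ca 0.0512, and the GC skew covariate Cdk5 -0.00125. The microglia covariate gave Gsk3b 0.0784, Ttbk2 0.0279, Ppp2ca 0.0575, Syk -0.364, Sirt2 -0.171, Dcx 0.215 and Grm5 0.141. Without 1 mouse, Prnp ran from -0.0385 to 0.0565, Cdk5 from -0.0278 to 0.0734, Mark4 from -0.0964 to 0.0253, Stub1 from -0.0785 to 0.0946 and the Ttbk1 minus Ttbk2 difference from -0.0207 to 0.237. The other pair differences kept their sign, from -0.118 to -0.0471 for Mapt minus Prnp, from -0.155 to -0.104 for Cdk5r1 minus Cdk5 and from 0.0110 to 0.0650 for Ppp2ca minus Gsk3b. Depth gave counting errors of 0.418% to 2.42%, small beside the spread between libraries. With the GC skew covariate and the same mice, the standard error was 0.04 in place of 0.12 for Stub1. For Mapt it was 0.03 in place of 0.06, and for Prnp 0.055 in place of 0.060. What limits the precision was not tested.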

Other observations

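Some genes close to the tau kinases and chaperones were chosen for mention after their values were seen. Map2, the microtubule-associated protein of dendrites, was at 2006 ± 126 CPM with void and 1772 ± 139 CPM with DHT (SD, n = 5; log2 fold change -0.18, edgeR adjusted p = 0.184). Fkbp5, an Hsp90 cochaperone of tau and a known target of steroid hormone receptors, was at 61.7 ± 10.4 CPM with void and 65.4 ± 3.94 CPM with DHT (SD, n = 5; log2 fold change 0.08, edgeR adjusted p = 0.790). Gsk3a, the paralog of Gsk3b, had a log2 fold change of 0.0011 (95% interval -0.20 to 0.20, edgeR adjusted p = 0.997). Cdk5r2, the other CDK5 activator, was at 142 ± 17.4 CPM with void and 152 ± 45.3 CPM with DHT (SD, n = 5; log2 fold change 0.10, edgeR adjusted p = 0.848).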
